A study of Mus musculus with 12 samples.

Results

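Hepatocytes owe much of their character to a small set of transcription factors, and the mRNA levels of 9 of them were compared here at 2 times of day between wild-type livers and livers with a liver-specific knockout of the clock gene Bmal1. The 9 factors were Hnf4a, Foxa1, Foxa2, Foxa3, Cebpa, Cebpb, Onecut1, Prox1 and Nr5a2. They were found by gene symbol among 22322 symbols in the RNA-seq tables. All 9 were present and all 9 passed the filter on low values, which asked for a group mean of 1 RPKM or more in at least 1 group. RPKM is the number of reads per kilobase of transcript, scaled to the depth of the library, so levels of different factors are comparable per length. Where a factor had several transcript rows, the row with the highest mean was used, and the 9 factors had 17 rows.

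The livers came from C57BL/6 mice of 8 weeks that had spent 2 days in darkness. The 4 groups held 3 livers each, wild type (WT) and knockout (KO) at circadian time 0 h (CT0) and 12 h (CT12). The WT mice were Bmal1 flox/flox, and the KO mice carried the same floxed allele together with a CRE recombinase under a liver-specific promoter, so all 4 groups shared the floxed allele. The methods name no CRE for WT, and effects of CRE and of Bmal1 loss cannot be told apart. The sample titles give 3 replicates in each group although 1 label speaks of 2 mice. The p-values set each difference against the spread between samples of a group, estimated jointly for the 4 groups and moderated over all genes tested.

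The factors belong to several DNA-binding families that act together on the same liver enhancers. The FOXA proteins are winged-helix pioneer factors that open chromatin at liver genes. C/EBPα and C/EBPβ are basic leucine zipper proteins, the first a driver of the differentiated metabolic state and the second a responder to fasting, hormones and acute-phase signals. HNF4α and LRH-1 (encoded by Nr5a2) are nuclear receptors, HNF4α a broad activator of hepatocyte genes and LRH-1 a regulator of bile acid and cholesterol genes. HNF6 (encoded by Onecut1) is a cut-homeodomain factor of liver and bile duct development, and PROX1 is a homeodomain protein of hepatocytes and lymphatic endothelium that acts largely as a corepressor. BMAL1, encoded by Arntl, pairs with CLOCK on E-boxes to drive the circadian clock.

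Arntl, the floxed gene, was measured first. Its level was 15.92 ± 0.37 RPKM in WT at CT0 and 1.049 ± 0.32 in WT at CT12, against 6.365 ± 0.944 and 3.989 ± 0.391 in KO (SD, n = 3). KO livers were lower than WT at CT0 (log2 difference -1.21, adjusted p = 0.00058 in limma) and higher at CT12 (1.29, adjusted p = 6.3e-05). These values cover the whole transcript and not the floxed exon alone, so they do not check the deletion itself. The depth read from the low values was 16900000 to 19020000 reads in WT at CT0, 13410000 to 16130000 in WT at CT12, 11460000 to 14900000 in KO at CT0 and 13240000 to 14420000 in KO at CT12. Replicates of a group correlated across genes with r from 0.9901 to 0.9948. The summed RPKM of 7 hepatocyte markers, most of it Alb, ran from 38200 to 50400 in WT and from 27700 to 35400 in KO, so the tissue label held in every liver. The sums of 5 markers each of Kupffer, endothelial and stellate cells were lower at CT12 than at CT0 within WT, for example 36.5 to 38.8 against 55.3 to 63.4 for endothelial cells. In KO the endothelial ranges overlapped, with 58.8 to 63.9 at CT0 and 30.3 to 63.5 at CT12, while the stellate sums did not, with 145 to 177 at CT0 and 112 to 143 at CT12. The sum of 5 cholangiocyte markers was 27.2 to 64.8 in WT and 88.4 to 152 in KO, nearly all of it Spp1, while Krt19, Krt7, Epcam and Sox9 each had group means of at most 1.26. The 4 lymphocyte markers summed to 3.52 to 6.52 over all livers. In whole liver, fewer cells of a type and less RNA per cell cannot be told apart.

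By group means, Hnf4a had the highest level of the 9 factors and Foxa1 the lowest. In WT at CT0, the means were 118.7 RPKM for Hnf4a, 36.81 for Cebpa, 16.0 for Nr5a2, 15.91 for Foxa3 and 13.26 for Prox1. Foxa2 followed with 5.079, Cebpb with 4.547, Onecut1 with 3.611 and Foxa1 with 1.598. In that group, Nr5a2, Foxa3 and Prox1 overlapped, as did Foxa2, Cebpb and Onecut1, while Hnf4a and Cebpa stood clear of their neighbours. Onecut1 (1.605 to 6.174) also overlapped Foxa1 (1.187 to 2.141). Within the FOXA family the order Foxa3, Foxa2, Foxa1 was the same in the means of all 4 groups. The plot of the 9 factors by group shows every liver.

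**Figure D1:**
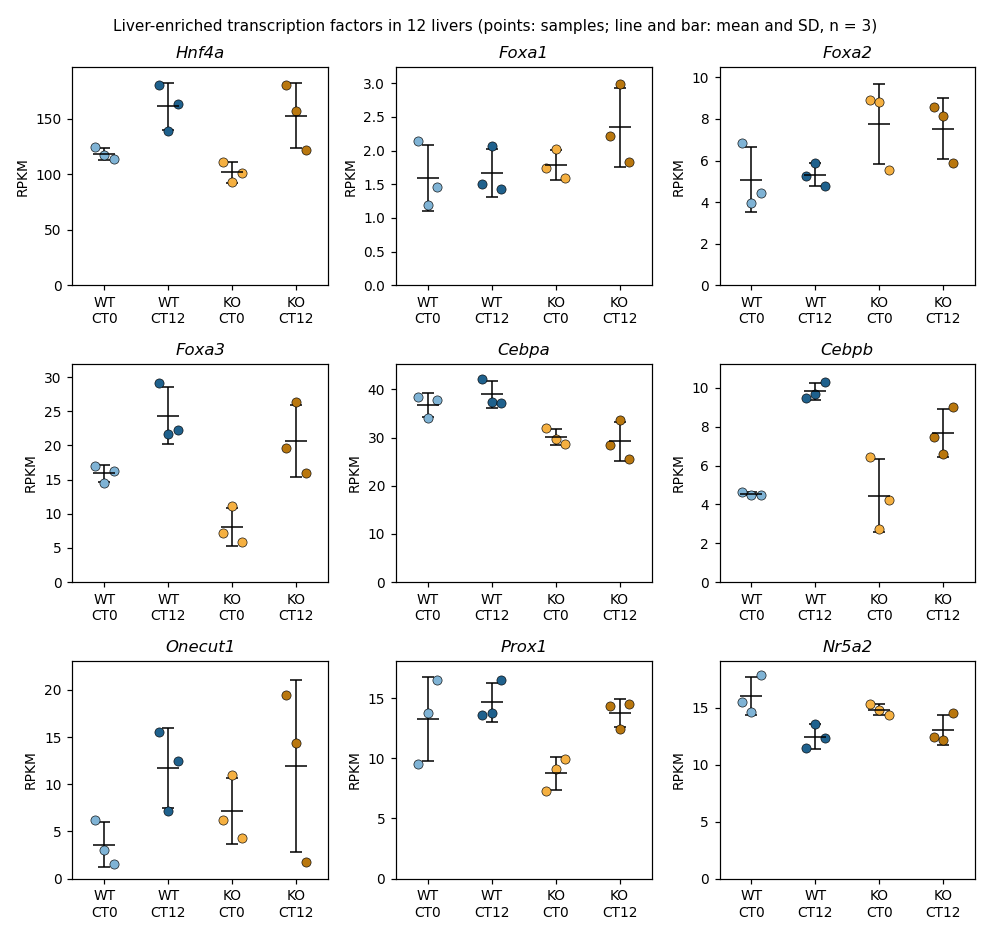
RPKM of each factor (y axis, from 0) in the 4 groups (x axis); each point is 1 liver, the horizontal line is the mean and the bar the SD of 3 livers. Foxa3 in KO at CT0 (5.867 to 11.14) lies below WT at CT0 (14.51 to 17.04), Cebpb in WT separates completely by time, and Onecut1 in KO at CT12 spreads from 1.784 to 19.47.

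Time of day was called for more of these factors than genotype was. Over both genotypes, Foxa3, Cebpb and Hnf4a were called higher at CT12 and Nr5a2 was called lower. These were 4 of 9 factors against a background of 16.6% of the 10799 genes tested (6.08% higher, 10.5% lower). Over both times, Foxa3 and Cebpa were called lower in KO and none was called higher. These were 2 of 9 against a background of 11.5% (7.44% higher, 4.03% lower). "Called" means an adjusted p under 0.05 in limma.

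Within a single genotype or a single time the calls were fewer. At CT0, only Foxa3 was called between genotypes (lower in KO), 1 of 9 against 1.86% of all genes (1.02% higher, 0.843% lower). At CT12, only Cebpa was called (lower in KO), 1 of 9 against 10.5% (6.97% higher, 3.49% lower). From CT0 to CT12 in WT, only Cebpb was called (higher), 1 of 9 against 11.6% (3.71% higher, 7.88% lower). In KO only Foxa3 was called (higher), 1 of 9 against 2.43% (1.1% higher, 1.32% lower). At most 1 factor was called in each, so these shares are coarse. No factor had a called interaction of genotype and time in limma, where the background was 1.49% (1.07% higher, 0.417% lower). Only Foxa3 had an unadjusted p under 0.05 there (0.039 in limma, adjusted p = 0.37), beside 1324 of the 10799 genes tested. The median log2 difference of the 9 factors for time over both genotypes was 0.38, against -0.03 for all genes tested, and for genotype over both times it was -0.15 against 0.04. The plot of log2 differences shows the intervals of each factor.

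**Figure D2:**
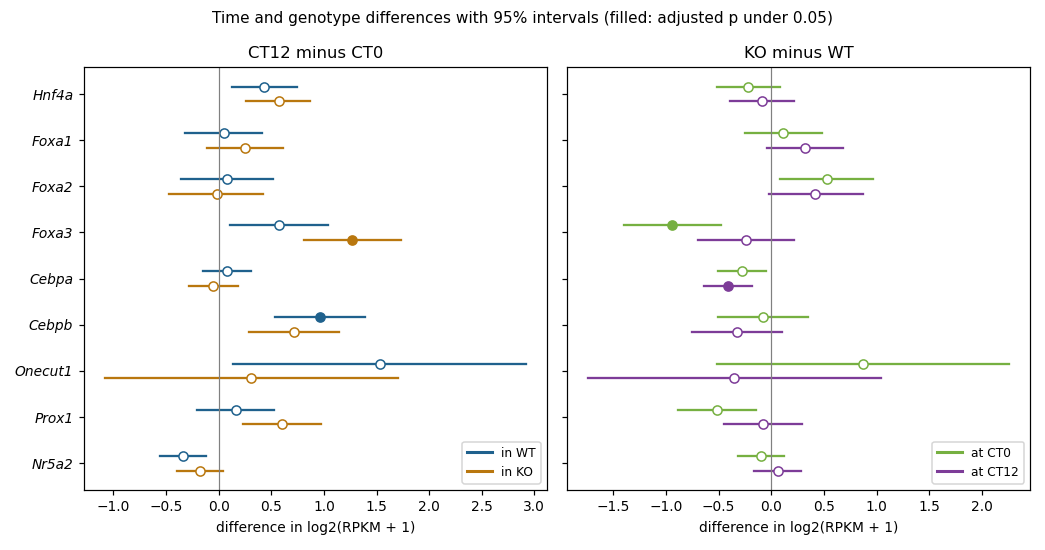
Differences in log2(RPKM + 1) (x axis) for each factor (y axis), CT12 minus CT0 on the left and KO minus WT on the right, with 95% intervals from limma; filled points have an adjusted p under 0.05. The 4 filled points are Cebpb for time in WT (0.96), Foxa3 for time in KO (1.27), Foxa3 between genotypes at CT0 (-0.94) and Cebpa between genotypes at CT12 (-0.41).

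The promoters of some of the factors are shown next, the 250 bases before the start site from RefSeq on GRCm38.p6, 5′ to 3′ along the gene's strand. Each is printed because its gene was called in at least 1 comparison. The exception is Onecut1, which was not called and is printed because its promoter holds a match to the E-box letters. All 9 factors matched, with 14 promoters. Letters in capitals mark a match to CACGTG (E-box), AGGTCA (nuclear receptor half-site), TTATGTAA (D-box), TGTTTAC (forkhead core), ATCAAT (Onecut core) or CCAAT (bound by NF-Y) on either strand.
Foxa3, chr7:19023540-19023789, minus strand: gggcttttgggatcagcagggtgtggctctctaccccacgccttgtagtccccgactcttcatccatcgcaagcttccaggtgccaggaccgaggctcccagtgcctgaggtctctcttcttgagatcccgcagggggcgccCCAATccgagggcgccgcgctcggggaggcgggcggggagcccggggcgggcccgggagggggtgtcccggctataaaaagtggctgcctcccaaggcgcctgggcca
Cebpa, chr7:35119043-35119292, plus strand: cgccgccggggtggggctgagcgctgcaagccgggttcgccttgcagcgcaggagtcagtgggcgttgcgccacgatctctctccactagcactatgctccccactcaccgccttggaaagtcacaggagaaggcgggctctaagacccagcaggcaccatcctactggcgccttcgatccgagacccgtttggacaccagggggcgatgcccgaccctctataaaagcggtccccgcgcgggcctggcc
Cebpb, chr2:167688665-167688914, plus strand: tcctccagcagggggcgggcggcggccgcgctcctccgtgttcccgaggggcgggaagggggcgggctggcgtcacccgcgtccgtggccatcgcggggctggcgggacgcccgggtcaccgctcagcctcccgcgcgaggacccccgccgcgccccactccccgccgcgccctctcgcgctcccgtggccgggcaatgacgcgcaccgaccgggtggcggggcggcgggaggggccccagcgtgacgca
Hnf4a upstream start, chr2:163506607-163506856, plus strand: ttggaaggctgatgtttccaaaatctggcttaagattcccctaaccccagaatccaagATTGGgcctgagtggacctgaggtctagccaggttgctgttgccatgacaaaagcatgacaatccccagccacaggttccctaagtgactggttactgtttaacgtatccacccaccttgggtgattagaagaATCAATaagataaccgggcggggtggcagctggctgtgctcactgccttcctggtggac
Hnf4a downstream start, chr2:163546905-163547154, plus strand: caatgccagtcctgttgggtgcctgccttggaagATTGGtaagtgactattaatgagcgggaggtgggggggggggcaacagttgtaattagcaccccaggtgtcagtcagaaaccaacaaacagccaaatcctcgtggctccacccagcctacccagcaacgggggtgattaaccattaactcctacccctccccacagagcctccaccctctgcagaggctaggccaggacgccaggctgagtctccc
Nr5a2 upstream start, chr1:136960449-136960698, minus strand: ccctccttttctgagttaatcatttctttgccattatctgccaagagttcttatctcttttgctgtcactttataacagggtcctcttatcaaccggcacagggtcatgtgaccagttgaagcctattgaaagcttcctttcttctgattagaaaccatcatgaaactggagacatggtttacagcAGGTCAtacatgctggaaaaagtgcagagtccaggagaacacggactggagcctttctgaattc
Nr5a2 downstream start, chr1:136953631-136953880, minus strand: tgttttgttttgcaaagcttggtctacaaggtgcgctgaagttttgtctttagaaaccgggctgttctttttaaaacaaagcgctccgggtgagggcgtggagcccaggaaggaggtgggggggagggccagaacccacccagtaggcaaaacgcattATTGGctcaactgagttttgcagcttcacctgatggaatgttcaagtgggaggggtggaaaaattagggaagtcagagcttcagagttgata
Onecut1, chr9:74861671-74861920, plus strand: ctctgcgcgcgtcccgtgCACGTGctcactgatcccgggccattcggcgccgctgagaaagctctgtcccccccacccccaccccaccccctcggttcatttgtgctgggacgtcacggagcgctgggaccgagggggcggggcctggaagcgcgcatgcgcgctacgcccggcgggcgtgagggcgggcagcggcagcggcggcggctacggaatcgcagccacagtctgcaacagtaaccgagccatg

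The windows searched were 300 bases long and reached 50 bases past the start. CACGTG lay in 7.15% of all 32851 promoters and in 1 of the 14, that of Onecut1, at -232 to -227 from the start. CCAAT lay in 37.4% of all and in 7 of the 14, in 6 of the 9 factors. In Foxa3 it lay at -108 to -104. The windows of Cebpa and Cebpb held none of the 6 motifs. ATCAAT lay in 7.54% of all and in 2 of the 14, upstream of Foxa2 and at -59 to -54 of the upstream Hnf4a start. AGGTCA (16.3% of all) lay in 1 of the 14, at -64 to -59 of the upstream Nr5a2 start, and TGTTTAC (3.65% of all) lay in 1, that of Foxa1 itself. TTATGTAA (0.938% of all) lay in none. A match is a run of letters and was not tested as a binding site.

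Among the FOXA genes, Foxa3 carried the calls. Foxa3 lies at chr7:19598631-19608887 (NCBIM37, minus strand), and its transcript of 2037 bases had 137 to 959 reads per liver. WT livers were at 17.04, 14.51 and 16.18 RPKM at CT0 and 29.19, 21.63 and 22.25 at CT12. KO livers were at 7.18, 11.14 and 5.867 at CT0 and 19.58, 26.32 and 16.02 at CT12. At CT0 every KO liver was below every WT liver, whereas at CT12 the genotypes overlapped, and in both genotypes every CT12 liver was above every CT0 liver. The KO mean at CT0 was 0.507 of the WT mean, a log2 difference of -0.94 (SE 0.21, 95% interval -1.4 to -0.48, adjusted p = 0.047). At CT12 the difference was -0.24 (interval -0.7 to 0.22, adjusted p = 0.53). From CT0 to CT12 the KO mean rose 2.56-fold (log2 1.27, SE 0.21, adjusted p = 0.013). In WT the CT12 mean was 1.53 times the CT0 mean, which did not pass the threshold (log2 0.57, SE 0.21, adjusted p = 0.1). With only the 6 WT samples fitted, this difference did pass (0.57, SE 0.13, adjusted p = 0.029 in limma). The larger step in KO was not called as a difference between genotypes (interaction 0.70, interval 0.04 to 1.35, adjusted p = 0.37). Over both genotypes the time difference was 0.92 (SE 0.15, adjusted p = 0.002) and remained called in all 19 alternative fits.

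The genotype calls for Foxa3 lay close to the threshold. At CT0 the call was lost in 12 of 20 alternative fits, with adjusted p from 0.12 to 0.14 without any 1 of the 3 WT livers at CT0, 0.14 and 0.16 without KO CT0 replicate 1 or 3, 0.058 to 0.063 without any 1 of the WT livers at CT12, and 0.065 without KO CT12 replicate 1. With no filter it was 0.099, with the sum of rows 0.053 and with only the 6 samples compared 0.091. Over both times the KO minus WT difference was -0.59 (SE 0.15, adjusted p = 0.023), and the adjusted p was 0.052 to 0.057 without WT CT0 replicate 1 or 3, WT CT12 replicate 1, KO CT0 replicate 3 or KO CT12 replicate 3. The time call in KO was lost without KO CT0 replicate 3 (log2 1.09, adjusted p = 0.052) and with only the 6 samples compared (adjusted p = 0.081). All of these kept the direction.

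Foxa2 had the opposite sign between genotypes but no call. Foxa2 (chr2:147868613-147872705, minus strand) was at 6.863, 3.953 and 4.422 RPKM in WT at CT0 and at 5.244, 5.888 and 4.8 in WT at CT12. The KO livers had 8.891, 8.812 and 5.534 at CT0 and 8.571, 8.163 and 5.881 at CT12. At each time 2 KO livers were above every WT liver and replicate 3 of KO lay within the WT range. Over both times the difference was 0.48 (SE 0.14, interval 0.16 to 0.79, adjusted p = 0.053). The adjusted p fell under 0.05 in 6 alternative fits, among them 0.018 without WT CT0 replicate 1, 0.02 without KO CT0 replicate 3 and 0.036 without KO CT12 replicate 3. Between times Foxa2 differed by 0.03 (interval -0.29 to 0.34).

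Foxa1 (chr12:58641618-58647108, minus strand) was close to the filter, with 58 to 129 reads per liver and a counting error of 13.1% at the lowest. Its level was 1.187 to 2.141 RPKM in WT at CT0, 1.427 to 2.072 in WT at CT12, 1.587 to 2.027 in KO at CT0 and 1.836 to 2.985 in KO at CT12. All 4 ranges overlapped with a neighbouring group, and the difference between genotypes over both times was 0.22 (interval -0.04 to 0.47, adjusted p = 0.27).

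Of the C/EBP genes, Cebpa followed genotype and Cebpb followed time. Cebpa (chr7:35904312-35906945, plus strand) is a gene of 1 exon, and its transcript had 868 to 1917 reads. The 6 WT livers had 38.51, 34.01 and 37.9 RPKM at CT0 and 42.25, 37.46 and 37.2 at CT12. The 6 KO livers had 31.89, 29.68 and 28.75 at CT0 and 28.38, 33.69 and 25.64 at CT12. The 6 KO livers (25.64 to 33.69) lay below the 6 WT livers (34.01 to 42.25), with no overlap. Over both times the difference was -0.34 (SE 0.07, interval -0.51 to -0.18, adjusted p = 0.01), and it was called in all 19 alternative fits, with adjusted p from 0.0035 to 0.029. The KO mean was 0.818 of the WT mean at CT0 and 0.75 of it at CT12. At CT12 alone the difference was -0.41 (SE 0.1, adjusted p = 0.027), and at CT0 -0.28 (SE 0.1, adjusted p = 0.23). The interaction was -0.13 (interval -0.45 to 0.19), so the 2 times were not shown to differ. The CT12 call did not survive leaving out any 1 of the WT livers at CT12 (adjusted p = 0.095, 0.051 and 0.055 for replicates 1, 2 and 3), nor was it made without KO CT12 replicate 1 (0.073) or 3 (0.098), and with only the 6 samples compared (0.073). Between times Cebpa differed by 0.02 (interval -0.15 to 0.18). The summed hepatocyte markers were also lower in KO, most of the sum being Alb, while the KO means of Ttr, Cyp3a11 and Ass1 on that list were higher than the WT means at both times. Their part in the Cebpa difference was not tested.

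Cebpb (chr2:167514415-167515918, plus strand) is likewise a gene of 1 exon and had 58 to 230 reads. The WT values were 4.644, 4.51 and 4.486 RPKM at CT0 and 9.481, 9.689 and 10.31 at CT12. The KO livers at CT0 had 6.424, 2.709 and 4.234, and those at CT12 had 7.47, 6.578 and 9.002. The WT livers were tightly grouped at each time (SD 0.0856 and 0.432), the KO livers at CT0 were not (SD 1.87), and in both genotypes all CT12 livers were above all CT0 livers. The mean rose 2.16-fold in WT (log2 0.96, SE 0.2, interval 0.54 to 1.39, adjusted p = 0.0087), a call kept in all 20 alternative fits. In KO the CT12 mean was 1.72 times the CT0 mean (log2 0.72, SE 0.2, adjusted p = 0.078), and without KO CT0 replicate 1 the difference was 0.97 (adjusted p = 0.012). The interaction was -0.25 (interval -0.85 to 0.36, adjusted p = 0.78). Over both genotypes the difference was 0.84 (SE 0.14, adjusted p = 0.0022). At CT12 the 3 KO livers were below the 3 WT livers, by -0.33 (interval -0.75 to 0.1, adjusted p = 0.34). Tmem189 runs on the other strand and shares 312 bases with Cebpb, and the kit does not mark strand. Tmem189 itself differed between times by 0.08 over both genotypes (interval -0.12 to 0.27).

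The summed markers of Kupffer cells, in which Cebpb is also known to be expressed, were 89.2 to 113 RPKM in WT at CT0 and 52.7 to 79.0 in WT at CT12, and 75.8 to 123 against 58.4 to 96.0 in KO. Their part in the Cebpb result was not tested.

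Hnf4a was higher at CT12 in both genotypes. The gene lies at chr2:163332544-163398646 (plus strand). In WT its level was 124.6, 117.2 and 114.2 RPKM at CT0 and 180.9, 139.2 and 163.9 at CT12. The KO livers were at 111.6, 92.97 and 101.5 at CT0 and 180.2, 157.3 and 121.7 at CT12. The times did not overlap in either genotype, and the genotypes did not overlap at CT0 but did at CT12. Over both genotypes the time difference was 0.50 (SE 0.1, interval 0.29 to 0.71, adjusted p = 0.0062), called in all 19 alternative fits. Neither genotype reached the threshold alone, with 0.43 in WT (SE 0.14, adjusted p = 0.066) and 0.57 in KO (SE 0.14, adjusted p = 0.057). Without KO CT12 replicate 3 both did, with 0.43 in WT (adjusted p = 0.03) and 0.72 in KO (adjusted p = 0.024), and the WT call also came without WT CT12 replicate 2 (adjusted p = 0.046) or KO CT12 replicate 1 (0.045). Between genotypes the difference was -0.22 at CT0 (interval -0.52 to 0.08) and -0.09 at CT12 (interval -0.39 to 0.22).

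The row used for Hnf4a was ENSMUST00000137449, a transcript of 692 bases and 5 exons with 805 to 2019 reads. The 2 long rows, of 4356 and 4362 bases and 10 exons each, held the same 3938 to 10639 reads, so reads were shared between rows and the isoforms cannot be told apart from these values. The row of 431 bases, ENSMUST00000143911, begins at the upstream start and had 377 to 996 reads, which can come from exons it shares with the others. Adult hepatocytes are known to use mainly the downstream start. With the longest row, the time difference was 0.56 in WT (adjusted p = 0.012) and 0.59 in KO (adjusted p = 0.028), so both passed the threshold. The plot of the 4 rows shows that they moved together from liver to liver.

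**Figure D3:**
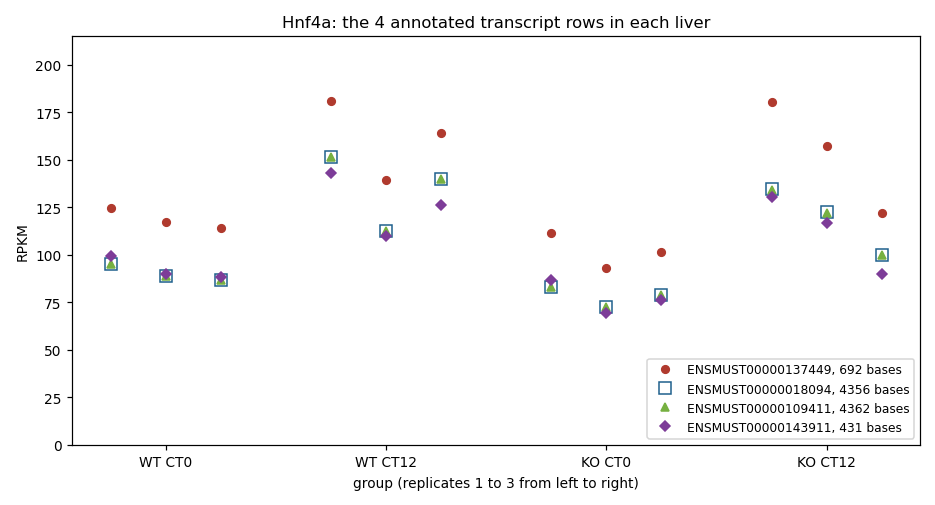
RPKM (y axis) of the 4 annotated Hnf4a transcript rows in each of the 12 livers (x axis, by group, replicates 1 to 3 from left to right). The 692-base row is the highest in every liver, and the rows of 4356 and 4362 bases coincide because they hold the same reads.

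Nr5a2 was the only called factor that was lower at CT12. It lies at chr1:138740161-138857004 (minus strand) and had 596 to 1117 reads. WT livers measured 15.48, 14.65 and 17.87 RPKM at CT0 and 11.46, 13.57 and 12.36 at CT12. KO livers measured 15.27, 14.79 and 14.34 at CT0 and 12.39, 12.17 and 14.52 at CT12. The times did not overlap in WT, and in KO replicate 3 at CT12 lay within the CT0 range. Over both genotypes the difference was -0.26 (SE 0.07, interval -0.41 to -0.1, adjusted p = 0.031). WT livers differed by -0.34 (adjusted p = 0.052) and KO livers by -0.18 (adjusted p = 0.36), with an interaction of 0.16 (interval -0.15 to 0.47). The call over both genotypes was lost in 7 of 19 alternative fits, with adjusted p of 0.072 without WT CT0 replicate 3, 0.069 and 0.062 without WT CT12 replicate 1 or 3, 0.054 without KO CT0 replicate 1 or 2, and 0.068 and 0.069 without KO CT12 replicate 1 or 2. Conversely, the WT difference passed in 5 alternative fits. These were the sum (adjusted p = 0.049), the mean (0.043) and the longest (0.038) of its rows. The others left out WT CT12 replicate 2 (adjusted p under the threshold but rounding to 0.05) or KO CT12 replicate 3 (adjusted p = 0.043). The genotypes differed by -0.02 over both times (interval -0.18 to 0.13).

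Onecut1 varied more between livers of 1 group than nearly any gene. It lies at chr9:74709728-74737591 (plus strand). WT livers had 6.174, 3.053 and 1.605 RPKM at CT0 and 15.57, 7.181 and 12.48 at the later time. KO livers had 6.23, 11.02 and 4.301 at CT0 and 19.47, 14.42 and 1.784 at CT12. WT livers were all higher at CT12, while KO replicate 3 at CT12 was below all KO livers at CT0. The SD within groups was 0.95 on the log2 scale, larger than in 99.7% of the genes tested. The time difference was 1.53 in WT (SE 0.64, interval 0.14 to 2.92, adjusted p = 0.15) and 0.31 in KO (interval -1.08 to 1.7), and the interaction was -1.22 (interval -3.19 to 0.75). The KO time difference was -0.24 without KO CT12 replicate 1 and -0.03 without replicate 2. Without KO CT12 replicate 3 the difference over both genotypes was 1.37 (adjusted p = 0.012) in place of 0.92 (adjusted p = 0.18), and the WT difference of 1.53 had an adjusted p of 0.031. That liver also had the lowest value of its group for Hnf4a, Foxa1, Foxa2, Foxa3 and Cebpa, 6 of the 9 factors in all, and the highest for Cebpb, Prox1 and Nr5a2. By annotated length its Onecut1 value stood for about 44.2 reads. The Onecut1 values were not whole multiples of 1 read at that length, so this read number is approximate, and the cause was not tested. A noncoding gene, Gm16551, shares 479 bases on the same strand.

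Prox1 was lowest in KO at CT0. The gene lies at chr1:191945660-191994559 (minus strand). The row used, ENSMUST00000177288, has no length in the annotation, so no read number is given for it. At the length of its 4133-base row, the read numbers were whole in only 1 of 12 livers. A noncoding gene on the other strand, Gm17566, shares 133 bases with Prox1. At CT0 and CT12 the WT livers had 9.517, 13.78 and 16.48 RPKM and 13.63, 13.8 and 16.5. The KO livers had 7.268, 9.115 and 9.949 at CT0 and 14.31, 12.42 and 14.49 at CT12. The KO livers separated completely by time, and at CT0 the genotypes overlapped only through WT replicate 1. The time difference in KO was 0.60 (SE 0.17, interval 0.23 to 0.97, adjusted p = 0.088) and in WT 0.16 (interval -0.21 to 0.53). At CT0 KO minus WT was -0.52 (SE 0.17, interval -0.89 to -0.15, adjusted p = 0.17). None of the 7 comparisons was called. Without WT CT0 replicate 1, which was the lowest WT liver for Prox1 but the highest of its group for 7 other factors, KO minus WT at CT0 was -0.73 (adjusted p = 0.034), over both times -0.41 (adjusted p = 0.022), and the KO time difference had an adjusted p of 0.041. Over both genotypes the time difference was 0.38 (SE 0.12, interval 0.12 to 0.64), with an adjusted p that rounds to 0.05 and was not under it. It passed in 5 alternative fits, among them the sum (adjusted p = 0.039), the mean (0.033) and the longest (0.045) of its rows, and without WT CT0 replicate 3 it was 0.46 (adjusted p = 0.024).

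The spread within groups differed among the 9 factors. Nr5a2 (SD 0.11 on the log2 scale) and Cebpa (0.12) were steadier than most genes, with a smaller SD in only 21.4% and 27.9% of the genes tested. Hnf4a (0.19), Foxa1 (0.21) and Prox1 (0.23) were in the upper part of the range. Cebpb (0.27), Foxa2 (0.28) and Foxa3 (0.30) exceeded 83.5%, 85.7% and 87.8% of the genes. The same size of difference was thus far easier to call for Cebpa than for Onecut1, as the plot of spread against level shows.

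**Figure D4:**
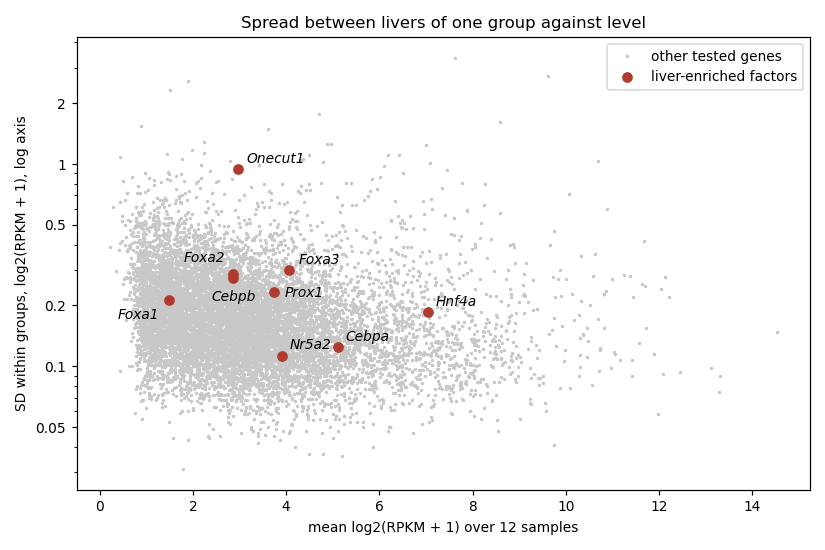
SD within groups of log2(RPKM + 1) (y axis, log axis) against the mean over 12 samples (x axis) for all 10799 genes tested (grey) and the 9 factors (red). Onecut1 stands at 0.95, above 99.7% of the genes tested, and Nr5a2 and Cebpa sit low at 0.11 and 0.12.

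Of 17 other transcription factors and co-regulators of the liver reported here, 16 were in the tables and 14 were tested. For time over both genotypes 3 of the 14 were called, in both directions, beside 16.6% of all genes tested. Foxo1, a mediator of the fasting response, rose by 0.48 (SE 0.1, adjusted p = 0.0077) and Rxra, the shared partner of many nuclear receptors, by 0.35 (SE 0.08, adjusted p = 0.014). Gata4, a zinc-finger factor of early liver development, fell by 0.34 (adjusted p = 0.0098). The median over the 14 was 0.1, against 0.38 for the 9 factors above. In WT alone 3 were called beside a background of 11.6%. These were Foxo1 (0.58), Nr1h4 (0.38), which encodes the bile acid receptor FXR, and Gata4 (-0.35). In KO alone 0 were called by limma beside a background of 2.43%. There 3 had an unadjusted p under 0.05, beside 2151 of all 10799 genes tested.

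Between genotypes 0 of these 14 were called by limma, beside 1.86% of all genes at CT0, 10.5% at CT12 and 11.5% over both times. An unadjusted p under 0.05 was found for 1 factor at CT0, 1 at CT12 and 5 over both times. Of all 10799 genes tested, 1529, 2687 and 2739 had such a p. For the interaction 0 were called, beside 1.49%, and 0 had such a p, beside 1324 of the 10799. The median over both times was -0.19, and -0.15 for the 9 factors.

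Of 22 textbook target genes of these factors reported here, 21 were in the tables and 20 were tested. Afp, the fetal albumin relative, did not reach the filter. Over both times 3 of the 20 were called between genotypes, beside 11.5% of all genes. Alb, the albumin gene, fell by 0.99 (SE 0.09, adjusted p = 3.6e-05), from 36060 ± 2870 RPKM in WT to 19010 ± 2020 in KO at CT0 and from 30910 ± 3910 to 14870 ± 1300 at CT12. Apoc3 and Apoa2, apolipoproteins of triglyceride-rich particles and of HDL, rose by 0.33 (adjusted p = 0.028) and 0.29 (adjusted p = 0.021). The list therefore did not go one way, and its median of 0.05 was near the 0.04 of all genes tested. Alb was the 1 call at CT0 (-0.93) and at CT12 (-1.05), beside 1.86% and 10.5% of all genes.

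Between times over both genotypes 6 of the 20 target genes were called, 3 in each direction, beside a background of 16.6% (6.08% higher, 10.5% lower). Pck1, the gluconeogenic enzyme PEPCK, rose by 1.68 (SE 0.16, adjusted p = 5.5e-05), Cyp7a1, the rate-limiting enzyme of bile acid synthesis, by 1.30 (SE 0.19, adjusted p = 0.0011), and Tat, tyrosine aminotransferase, by 0.63 (adjusted p = 0.047). Igfbp1, an insulin-suppressed binding protein of growth factors, fell by 1.49 (adjusted p = 0.0072), Cyp8b1, the sterol 12-alpha-hydroxylase, by 0.68 (adjusted p = 0.046) and Apoc3 by 0.35 (adjusted p = 0.018). In WT alone the calls were Cyp7a1 (1.87), Igfbp1 (-1.68) and Pck1 (1.33), beside a background of 11.6%. In KO alone the call was Pck1 (2.03), beside 2.43%. The interaction had 0 calls by limma, beside 1.49% of all genes. It had 4 genes at an unadjusted p under 0.05, beside 1324 of all 10799 genes tested. A difference in time course between genotypes was therefore not shown for this list.

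The genes whose profile over the 12 livers was closest to Foxa3, Cebpa and Cebpb, the factors called within a single genotype or a single time, were found by Pearson's r on log2(RPKM + 1). These values describe livers that share groups and libraries and carry no test. For Foxa3 they were Zc3h13 (0.931), Shb (0.914) and Utrn (0.898). Shb, which encodes a signalling adaptor, ran at 11.74, 16.86, 7.122 and 12.66 RPKM in WT CT0, WT CT12, KO CT0 and KO CT12, the same order of groups as for Foxa3. For Cebpa they were Pparg (0.929), Mup8 (0.919) and Hao1 (0.907), all lower in KO in their group means. Pparg, a nuclear receptor of lipid storage, had means of 3.82 and 4.798 in WT and 2.667 and 2.387 in KO. Mup8 belongs to a family of near-identical genes whose reads may be split between copies. For Cebpb they were Mfsd2a (0.949), 1810055G02Rik (0.945) and Atl2 (0.942). Mfsd2a, a lysophospholipid transporter, went from 2.767 to 32.35 in WT and from 2.529 to 15.51 in KO between CT0 and CT12, a larger step than that of Cebpb.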

How the data were processed

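Liver RNA of 12 mice was sequenced. For each sample the authors deposited RPKM values of 46585 transcripts, which are read numbers scaled to transcript length and library depth. Per the submitters' processing notes TopHat2, bedtools 2.19.1 and mm9 were used. The roles of the tools, the annotation and the handling of reads shared by several transcripts are not given in the sources used here. Replicates were not pooled. Groups and replicate numbers came from the sample titles.

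The transcript row with the highest mean over the 12 samples was kept for each of 22322 symbols, and the 10799 genes whose mean reached 1 RPKM in any of the groups were tested. The scale was log2(RPKM + 1), which understates the changes of low genes. In R 4.3.3, limma 3.58.1 was used to fit the 4 group means (lmFit and eBayes with trend), with p-values adjusted by Benjamini-Hochberg over the 10799 genes and a threshold of 0.05. Intervals cover 95%. The fit was also run on simulated data in which a gene had the same spread in every group. That run does not cover genes whose spread differs between groups.

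The depth was read from the low RPKM values, which were multiples of the worth of 1 read given the transcript lengths of GENCODE vM1 (NCBIM37, the same assembly as mm9, with 95.5% of the rows). Read numbers give counting error only. Promoters came from RefSeq on GRCm38.p6.

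The members, the lists of other liver factors and of target genes and the cell type markers were chosen with earlier results of these data known. The rule for named genes took the 9 factors, Arntl, up to 4 called genes with the largest change per list and comparison, and the 3 genes closest by Pearson's r to each factor called within a single genotype or a single time. In the lists, 2 genes are not reported here and are left out of the lists' counts and medians. Tmem189, Tat and Apoc3 (for time) were added after their values were seen. The alternatives were a pseudocount of 0.1 RPKM, no filter, quantile normalization, the sum or the mean of a gene's rows, the replicate number as a block, a fit to the 6 samples compared alone, and fits without each sample in turn. The longest transcript row was added after the data were seen.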

Additional observations from a re-analysis of the deposited data

How the results depend on the processing

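The direction and the side of the threshold of the 9 factors were compared over the 7 comparisons. With no filter on low values, with the sum of a gene's transcript rows, and with only the 6 samples compared, the count of called factors for KO against WT at CT0 went from 1 to 0, and at CT12 it went to 0 with only the 6 samples compared. For CT12 against CT0 in WT the count went from 1 to 3 with the sum, the mean or the longest of the rows and to 4 with only the 6 samples. For CT12 against CT0 in KO it went from 1 to 2 with quantile normalization, the mean or the longest of the rows, and to 0 with only the 6 samples. The cause was not tested.

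Leaving out 1 sample gave 0 to 1 called factors for KO against WT at CT0, 0 to 1 at CT12, 1 to 4 for time in WT, 0 to 2 for time in KO, 1 to 3 for genotype over both times, and 3 to 5 for time over both genotypes. The interaction had 0 called factors in every fit, beside 87 to 198 calls among all genes.

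A replicate block made the count of called factors 2 for time in WT and 2 for time in KO. It also called Prox1 for time over both genotypes (0.38, adjusted p = 0.025 in limma). Foxa2 was called higher in KO over both times with the block (0.48, adjusted p = 0.021 in limma). The other 5 counts, these calls included, stayed within 1.5 times those without the block. The deviations of same-numbered samples had a mean correlation of 0.008 (from -0.066 to 0.139 over 18 pairs, 2 of them over 0.1). Of 12 samples, 9 had a higher mean correlation with their own number. A mean over all genes cannot decide whether the numbers pair the samples.

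Among single factors, 33 of the alternatives turned a direction. None of these was called before or after. For Nr5a2 between genotypes at CT12, quantile normalization gave -0.03, and leaving out 1 sample gave -0.02 to 0.12. The other turns came from leaving out 1 sample, and the log2 differences then ran as follows. For KO minus WT at CT0 they were 0 to 0.26 for Foxa1, the low end lying just under 0, and -0.33 to 0.17 for Cebpb. At CT12 they were -0.21 to 0.07 for Hnf4a and -0.9 to 0.54 for Onecut1. Over both times they were -0.02 to 0.7 for Onecut1 and -0.06 to 0.02 for Nr5a2. For CT12 minus CT0 in WT they were -0.07 to 0.19 for Foxa1, -0.05 to 0.28 for Foxa2 and -0.04 to 0.32 for Prox1. In KO they were -0.22 to 0.12 for Foxa2, -0.15 to 0.04 for Cebpa and -0.24 to 1.2 for Onecut1. Over both genotypes they were -0.07 to 0.13 for Foxa2 and -0.04 to 0.06 for Cebpa. For the interaction they were -0.3 to 0.04 for Foxa2 and -0.5 to 0.01 for Cebpb. Among the factors with whole read numbers in the row used, the fewest reads in a sample were 58, for Foxa1 and Cebpb, a counting error of 13.1%. The approximate read number of Onecut1 in its lowest liver was smaller still.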
